A study of Mus musculus with 8 samples.

Results

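The Hox, Dlx, Lhx, Pax, Tbx and Irx genes and the relatives of Six5 encode the homeodomain, paired-box and T-box transcription factors that pattern the embryo. They were followed here at the level of H3K4me3, trimethylation of lysine 4 of histone H3, in lung tumor cells with and without an inducible deletion of Gpx4. All peaks of the deposited H3K4me3 table whose gene symbol belonged to one of these families were taken, apart from those of Pax5, by symbol and without a threshold on a measured value. This gave 85 of 35486 listed peaks, which belonged to 53 of the 20871 genes in the table. The other 33 of 86 family genes looked for had no listed peak of their own symbol.

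H3K4me3 was profiled by an assay that the study calls CUT&Tag, in which an antibody to the mark directs an enzyme to nearby DNA. The study's protocol describes a nuclease that cuts out this DNA, whereas the name stands for tagmentation, so the chemistry used is unclear. For each library 1000000 sorted tumor cells were used. The KL group held 2 libraries (replicates 1 and 2) from Lkb1fl/fl mice, and the KLG4m/m group held 2 libraries (replicates 3 and 4) from Lkb1fl/flGpx4m/m mice. All mice received Ad-Cre through the nose, which deletes Lkb1 in both groups, and all were given tamoxifen, with cells taken from the lung tumors 10 weeks after Ad-Cre. In Gpx4m/m mice, Cre also permits expression of the DreERT2 recombinase, which removes rox-flanked exons of Gpx4 once tamoxifen is given, so that the deletion can occur in Cre-exposed cells. Gpx4 encodes a glutathione peroxidase that reduces lipid hydroperoxides. The study describes the tumor cells as CD45-CD31-EpCAM+, while its sorting protocol gives another CD45 gate, and the protocol's number of mice differs from the number of labelled libraries. Mice were matched for age and sex and were 8 to 10 weeks old when Ad-Cre was given, while the sex behind each library and any processing batch were not given.

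H3K4me3 lies at the promoters of genes that are transcribed or ready to be transcribed, and its level tends to follow promoter activity. In tissues where they are silent, the promoters of these families are known for CpG-rich DNA that Polycomb complexes mark with H3K27me3, often together with low H3K4me3. Several members have roles in the lung itself, among them Hoxa5, Tbx2 and Tbx4, which act in the mesenchyme during growth and branching of the lung. Many others act in the brain, limbs, kidney, eye or gonads.

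The libraries were of similar depth, with 3244495 to 3463731 reads in listed peaks, and libraries of the same group differed from each other by a chi-square per degree of freedom of 1.13 and 1.23, against 2.37 to 2.80 between groups. Signal is given in CPM, counts per 1000000 reads in listed peaks after TMM scaling, so a change shared equally by all peaks could not be seen. The single Gpx4 peak held 242 and 236 reads in KL libraries, against 304 and 301 in KLG4m/m libraries, a log2 fold change of 0.39 (SE 0.10, adjusted p = 0.00178), which does not check the deletion of exons. Of the genes whose proteins were used for the sort, Epcam held 182 and 200 reads in KL against 115 and 94 in KLG4m/m libraries (-0.82, SE 0.13, adjusted p = 1.56e-06). Ptprc, which encodes CD45, held 189 and 207 against 241 and 204 (0.22, adjusted p = 0.163), and Pecam1, which encodes CD31, held 216 and 249 against 244 and 265 (0.19, adjusted p = 0.222), so that both carried reads in all 4 libraries. Markers of other cell types also differed between the groups, and the counts of the lists stand beside 5.38% of all genes higher and 9.63% lower. Of 9 immune genes with a listed peak, 4 were higher in KLG4m/m cells, with a summed level of 306 to 318 CPM in KL and 388 to 402 CPM in KLG4m/m libraries, and of 9 alveolar and lung epithelial genes 6 were lower (405 to 419 CPM against 303 to 311 CPM). Of 10 epithelial genes 2 were lower (489 to 498 CPM against 441 to 449 CPM), and of 10 endothelial genes 1 was higher and 1 lower (332 to 373 CPM against 340 to 354 CPM). Of 8 fibroblast and mesenchymal genes 1 was higher (151 to 154 CPM against 158 to 161 CPM), and 6 more genes of that list, Col1a2, Col3a1, Dcn, Lum, Tcf21 and Postn, had no listed peak. Of 7 neuroendocrine genes 1 was lower (76.3 to 77.0 CPM against 71.9 to 72.9 CPM). No marker with a peak was at 0 reads in all libraries, and Sftpc and Laptm5 had no listed peak. The part of these differences in the results below was not tested, and fewer cells of a type and less signal per cell cannot be told apart in such libraries.

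Promoter sequences are shown for Pax9 and Lhx2, which held the single peaks with the largest rise and the largest fall among the members. Those of Hoxa5 and Hoxb4, which moved in opposite directions in their clusters, are shown as well. Each is the 250 bases upstream of a start site in RefSeq on the build GRCm38.p6, written 5′ to 3′ on the gene's strand with every CG dinucleotide in capitals. Pax9 lies at chr12:56695221-56695470 on the plus strand, the start sites of Lhx2 at chr2:38339031-38339280 and chr2:38351058-38351307 on the plus strand, Hoxa5 at chr6:52204588-52204837 on the minus strand and Hoxb4 at chr11:96318017-96318266 on the plus strand.

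Pax9: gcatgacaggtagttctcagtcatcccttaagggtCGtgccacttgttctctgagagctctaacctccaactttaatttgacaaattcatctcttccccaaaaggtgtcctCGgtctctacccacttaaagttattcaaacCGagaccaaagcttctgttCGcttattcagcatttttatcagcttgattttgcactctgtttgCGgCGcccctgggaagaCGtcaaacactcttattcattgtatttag

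Lhx2, start site 1: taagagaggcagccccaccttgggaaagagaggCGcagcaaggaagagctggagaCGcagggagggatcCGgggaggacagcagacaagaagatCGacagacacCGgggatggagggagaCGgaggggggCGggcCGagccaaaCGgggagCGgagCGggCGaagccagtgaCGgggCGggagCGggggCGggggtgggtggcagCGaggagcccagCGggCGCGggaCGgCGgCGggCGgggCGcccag

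Lhx2, start site 2: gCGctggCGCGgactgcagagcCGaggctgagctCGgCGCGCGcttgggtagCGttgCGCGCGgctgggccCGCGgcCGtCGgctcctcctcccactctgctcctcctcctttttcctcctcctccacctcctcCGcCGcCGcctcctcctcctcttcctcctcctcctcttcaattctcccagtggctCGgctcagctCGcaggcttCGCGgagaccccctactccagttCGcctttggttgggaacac

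Hoxa5: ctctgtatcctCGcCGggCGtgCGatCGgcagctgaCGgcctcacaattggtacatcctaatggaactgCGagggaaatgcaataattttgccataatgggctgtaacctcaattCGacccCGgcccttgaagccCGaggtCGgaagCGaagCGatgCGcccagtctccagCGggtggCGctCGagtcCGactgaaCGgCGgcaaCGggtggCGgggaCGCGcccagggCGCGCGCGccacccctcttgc

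Hoxb4: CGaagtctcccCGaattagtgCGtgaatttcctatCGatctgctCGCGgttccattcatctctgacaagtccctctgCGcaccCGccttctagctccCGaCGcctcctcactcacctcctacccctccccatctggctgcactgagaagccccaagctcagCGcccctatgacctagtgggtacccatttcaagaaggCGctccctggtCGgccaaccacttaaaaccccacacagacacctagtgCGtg

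The Pax9 window held 7 CG, and 53.7% of the 32851 windows of this length in the RefSeq table held fewer. The Lhx2 windows held 25 and 24 CG (89.3% and 88.0% of windows held fewer), the Hoxa5 window 28 (92.4%) and the Hoxb4 window 14 (70.6%). The windows of Hoxd9 and Six5, whose promoter peaks fell, held 13 CG each, and those of Tbx1, whose promoter peak rose, held 17 and 10. Of the 53 genes, 32 matched the RefSeq table with 41 windows, of which 30 held at least 10 CG (37.8% of all windows did), with a median of 14 against 6 over all windows. Among the family genes without a listed peak, 22 matched with 26 windows, and these held a median of 11 CG. Tbx2, another gene with a changed peak, is named only. Windows were matched by symbol, and the peak positions below are those of the deposited table, whose gene coordinates equal those of GRCm38 for 0 of 53 members, so peaks and windows were not overlaid.

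The 85 peaks were 400 bp long each and were mostly modest. Of these, 56 were annotated to within 1 kb of a start site, 5 to 1 to 2 kb, 2 to 2 to 3 kb, 14 as distal intergenic, 4 as intronic, 3 as lying in a 3′ UTR and 1 as exonic. The 56 promoter peaks had a median of 12.2 CPM, against 41.2 CPM over all 17073 promoter peaks, which put the members' median at the 20.9th percentile of promoter peaks. The 29 peaks further out had a median of 12.6 CPM, against 7.21 CPM over all peaks at that distance. Single libraries held 4 to 193 reads at a member peak, so counting error was a large part of the spread. Most of the genes, 34 of 53, had 1 peak, and Irx1 and Lhx9 had 5 each.

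In KLG4m/m cells, H3K4me3 rose at the promoters of Pax9, Tbx1 and Hoxb4 and fell at those of Lhx2, Hoxa5, Tbx2, Hoxd9 and Six5. Thus 8 of 85 peaks passed the threshold (edgeR's quasi-likelihood test, Benjamini-Hochberg adjusted p under 0.05 over all peaks), beside 8.62% of all peaks. The 3 higher peaks stood beside 3.1% of all peaks and the 5 lower peaks beside 5.52%, so the shares of the members, 3.53% and 5.88%, were near those of the table. All 8 were among the 56 promoter peaks, of which 5.36% were higher and 8.93% lower, beside 2.89% and 8.43% of all promoter peaks. Of the 29 peaks further out none passed the threshold in the edgeR fit with TMM scaling, the DESeq2 fit or the limma fit. In that edgeR fit 6.11% of all peaks at that distance passed it (3.29% higher and 2.82% lower). An unadjusted p under 0.05 in the edgeR fit was found at 6 of the 29, 5 higher and 1 lower. Of all peaks at that distance 21.5% had such a p (11.3% higher and 10.2% lower). The libraries of the groups did not overlap at 49 of 85 peaks, 30 higher and 19 lower, beside 54.2% of all peaks. Of all 35486 peaks, 9770 were higher and 9456 lower without overlap. The median log2 fold change was 0.088 over the 85 peaks and 0.0077 over all peaks. Values above 0 were found at 54 of the 85 peaks, beside 18107 of all 35486 peaks.

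The split between higher and lower peaks depended on the scaling. With each library centred on its median promoter peak, the median of all peaks moved to 0.11, the members counted 12 higher and 5 lower peaks, and all peaks counted 3322 higher and 1618 lower in place of 1099 and 1960. The added peaks included those of Hoxa4, Hoxa7, Hoxa10, Hoxc6 and Hoxd12 and 3 of Lhx9, some of them more than 1 kb from a start site. The 8 peaks named above kept their directions in all alternative fits. DESeq2 called 2 of them, Pax9 and Lhx2, among 283 of all peaks. When KLG4m/m replicate 3 or 4 was left out, no peak in the whole table passed the threshold in the edgeR fit. The lone KLG4m/m library was assumed there to vary as the KL libraries did, and the prior degrees of freedom of the fit fell from 24.5 to 2.63. Without KL replicate 1 or 2, the lone KL library was likewise assumed to vary as the KLG4m/m libraries did. The median prior degrees of freedom were then infinite, so the spread of each peak was taken from the trend over all peaks.

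**Figure D1:**
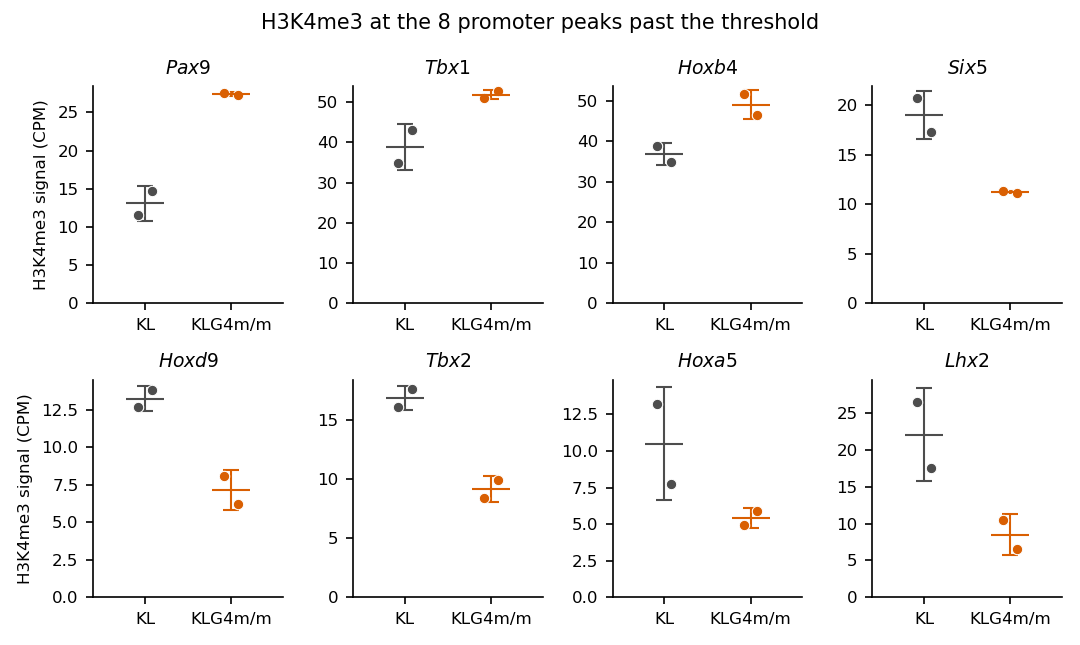
H3K4me3 signal in CPM (vertical axes, starting at 0) at the 8 promoter peaks past the threshold, with 1 point for each KL (grey) and KLG4m/m (orange) library and bars for the mean and SD. In each of the 8 panels both KLG4m/m points lie on the same side of both KL points, with Pax9 rising from 13.1 to 27.4 CPM and Lhx2 falling from 22.0 to 8.47 CPM.

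Pax genes encode paired-domain factors. Of the 8 family genes counted here, 4 had peaks, 7 in all, and 1 peak was higher. Pax9 is needed for the pharyngeal pouches, from which the thymus forms, and for teeth. Its only listed peak (chr12:56742289-56742689, 33 bp from a start site) held 40 and 51 reads in KL libraries, against 95 and 88 in KLG4m/m libraries. Both KLG4m/m libraries lay well above both KL libraries. The signal rose from 13.1 ± 2.25 to 27.4 ± 0.215 CPM (mean ± SD, n = 2 each), a log2 fold change of 1.06 (SE 0.19, adjusted p = 5.64e-04), or 2.09-fold. This was the smallest adjusted p among the 85 peaks. The same direction and call held in 8 of 10 alternative fits, the exceptions being those without a KLG4m/m library (adjusted p from 5.70e-06 to 0.337 over the fits).

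The remaining Pax genes gave smaller differences. Pax3, a factor of neural crest and muscle progenitors, had 77 and 71 reads in KL against 88 and 77 in KLG4m/m libraries (log2 fold change 0.21, SE 0.17, adjusted p = 0.454). Pax6, the master gene of eye development, had 3 peaks between -0.24 and 0.22, and it was the Pax gene with the highest level summed over peaks, 24.3 CPM. Pax2, a gene of the kidney and urogenital tract, had the lowest, 14.4 CPM over 2 peaks. Its intronic peak held 17 and 21 reads in KL against 11 and 13 in KLG4m/m libraries (log2 fold change -0.60, SE 0.38, adjusted p = 0.334). Pax1, Pax4, Pax7 and Pax8 had no listed peak.

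Lhx genes encode LIM-homeodomain factors, whose LIM domains bind the cofactor Ldb1. All 8 had peaks, 16 in all, of which 1 was lower. Lhx2, a factor of the forebrain, the eye and hair follicle stem cells, had 2 promoter peaks that lay 11.3 kb apart. The peak at chr2:38229579-38229979, 297 bp from a start site, held 92 and 61 reads in KL against 36 and 21 in KLG4m/m libraries. The groups did not overlap, although the KL libraries lay further from each other than KL replicate 2 from KLG4m/m replicate 3. The signal fell from 22.0 ± 6.29 to 8.47 ± 2.78 CPM (mean ± SD, n = 2 each), with a log2 fold change of -1.36 (SE 0.24, adjusted p = 7.37e-04), or 2.57-fold lower. It was the largest fold change among the 85 peaks. The call held in 8 of 10 alternative fits, again except without a KLG4m/m library (adjusted p from 1.18e-07 to 0.341 over the fits). The other Lhx2 promoter peak, at chr2:38240913-38241313, held 56 and 55 reads in KL against 37 and 40 in KLG4m/m libraries. These libraries did not overlap either, but the difference of -0.47 (SE 0.21, adjusted p = 0.166) did not pass the threshold.

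Lhx9, a gene of the developing gonad, differed in the other direction when its peaks were summed. Its 5 peaks held 231 and 236 reads in KL against 298 and 264 in KLG4m/m libraries, a log2 fold change of 0.32 (SE 0.10, adjusted p = 0.0158 over all genes), and it had the highest summed level of the family, 75.6 CPM. No single Lhx9 peak passed the threshold. The peak 56.2 kb from a start site, which had the highest value of the family, held 10 and 10 reads in KL against 26 and 14 in KLG4m/m libraries (1.05, SE 0.40, adjusted p = 0.103). The peak 19.7 kb away had a log2 fold change of 0.66 (adjusted p = 0.0824), and the 3 promoter peaks lay between -0.0047 and 0.46. With promoter peaks alone the gene's difference was 0.22 (adjusted p = 0.176), and its call was also lost without KL replicate 1 (0.106) or KL replicate 2 (0.0807). Over the alternatives, its adjusted p ran from 0.00433 to 0.302.

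The other Lhx genes did not pass the threshold. Lhx3, which with Lhx4 builds the pituitary, had the lowest level of the family, 2.98 CPM, at a single distal peak with 15 and 14 reads in KL against 8 and 4 in KLG4m/m libraries. Its log2 fold change was -1.20 (SE 0.50, adjusted p = 0.126). Lhx4 held 89 and 98 reads against 106 and 99, a difference of 0.19 (SE 0.15, adjusted p = 0.464). Lhx6 and Lhx8, factors of forebrain interneurons, had promoter peaks with differences of -0.56, 0.11 and -0.50. Lhx1 and Lhx5, which act in the head and the kidney or in the forebrain, lay between -0.14 and 0.40.

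Tbx genes encode factors with a T-box DNA-binding domain. Of 13 genes counted here 8 had peaks, 13 in all, and 1 was higher and 1 lower. Tbx2, a repressor expressed in the lung mesenchyme, the heart and the limbs, had a peak at its start site (chr11:85723399-85723799) with 56 and 61 reads in KL against 29 and 32 in KLG4m/m libraries. The replicates of each group lay close together, and the groups did not overlap. The signal fell from 16.8 ± 1.03 to 9.16 ± 1.06 CPM (mean ± SD, n = 2 each), a log2 fold change of -0.88 (SE 0.22, adjusted p = 0.0128), or 1.84-fold lower. Without KL replicate 2 the adjusted p was 0.0723, and over the alternatives it ran from 0.0112 to 0.340. The larger Tbx2 peak, 11.9 kb from the start site, held 164 and 146 reads in KL against 136 and 112 in KLG4m/m libraries, a difference of -0.27 (SE 0.13, adjusted p = 0.213).

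Tbx1, which patterns the pharyngeal arches and the outflow tract of the heart, was higher in KLG4m/m cells. Its promoter peak (chr16:18409058-18409458) held 121 and 149 reads in KL against 176 and 170 in KLG4m/m libraries. KL replicate 1 was the lowest library, and KL replicate 2 lay between it and the KLG4m/m libraries. The signal rose from 38.9 ± 5.73 to 51.8 ± 1.13 CPM (mean ± SD, n = 2 each), a log2 fold change of 0.41 (SE 0.13, adjusted p = 0.0411), or 1.33-fold. Without KL replicate 1, the lower of the KL libraries, the log2 fold change was 0.27 and the adjusted p 0.349, with a range of 0.00371 to 0.498 over the alternatives. A further Tbx1 peak, annotated to the 3′ UTR, held 53 and 62 reads in KL against 66 and 70 in KLG4m/m libraries, a difference of 0.30 (SE 0.19, adjusted p = 0.334).

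Tbx21, which encodes T-bet, the factor of type 1 helper T cells, had the highest summed level of the family, 93.0 CPM over 4 peaks. Its peaks together held 322 and 294 reads in KL against 335 and 315 in KLG4m/m libraries, a log2 fold change of 0.13 (SE 0.09, adjusted p = 0.344). Tbx4, which with Tbx5 drives the outgrowth of the lung bud, was lowest with 4.72 CPM, and its 1 peak held 16 and 13 reads against 16 and 19. Its difference was 0.33 (SE 0.37, adjusted p = 0.621). Tbx3, Tbx6, Tbx15 and Tbx18, genes of mesoderm, limb, skin and kidney development, had differences between -0.18 and 0.06. Tbx5, Tbx10, Tbx19, Tbx20 and Tbx22 had no listed peak.

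Six5 and its relatives are homeodomain proteins that work with the Eya coactivators. Of the 2 listed peaks of this family 1 was lower. Six5, the neighbour of the myotonic dystrophy gene Dmpk, had a promoter peak (chr7:18828421-18828821) with 72 and 60 reads in KL against 39 and 36 in KLG4m/m libraries, which did not overlap. The signal fell from 19.0 ± 2.43 to 11.2 ± 0.116 CPM (mean ± SD, n = 2 each), a log2 fold change of -0.76 (SE 0.21, adjusted p = 0.0214), or 1.69-fold lower. Without KL replicate 1 the log2 fold change was -0.62 and the adjusted p 0.155, with a range of 0.0191 to 0.412 over the alternatives. The peak of Dmpk, 10.2 kb away, had a log2 fold change of 0.28 (adjusted p = 0.506).

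Hox genes lie in 4 clusters in which gene order follows the order of expression along the body axis. Of 39 genes 20 had peaks, 25 in all, of which 1 was higher and 2 were lower. Summed over the 25 peaks the signal was 321.0 and 321.5 CPM in the KL libraries and 358 and 361 CPM in the KLG4m/m libraries. The summed level was thus higher in both KLG4m/m libraries, whereas the called peaks were split. The Hoxa cluster accounted for 10 of the peaks, Hoxb for 8, Hoxc for 5 and Hoxd for 2.

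In the Hoxa cluster neighbouring peaks differed in direction. Hoxa5, which is required in the lung mesenchyme for branching and for the postnatal lung, had a promoter peak (chr6:52180981-52181381) with 46 and 27 reads in KL against 17 and 19 in KLG4m/m libraries. The KL libraries were far apart, and KL replicate 1 stood above the rest. The signal fell from 10.5 ± 3.86 to 5.41 ± 0.674 CPM (mean ± SD, n = 2 each), a log2 fold change of -0.96 (SE 0.31, adjusted p = 0.0493), or 1.94-fold lower, which was the call nearest to the threshold. Without KL replicate 1 it was -0.53 with an adjusted p of 0.487, limma gave 0.0637, and DESeq2 gave no adjusted p. Across the alternatives, adjusted p values from 0.00817 to 0.487 were obtained.

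Just beyond the threshold lay the Hoxa7 peak 13.5 kb from that of Hoxa5, with 52 and 59 reads in KL against 71 and 87 in KLG4m/m libraries (log2 fold change 0.57, SE 0.19, adjusted p = 0.0589). The highest single Hox peak, the other peak of Hoxa7, held 157 and 159 reads against 172 and 155 (0.11, SE 0.12, adjusted p = 0.621), and Hoxa7 had the highest summed level of its cluster, 67.1 CPM. Hoxa3, a gene of thymus and parathyroid formation, had 2 peaks with opposite signs. The peak at chr6:52156481-52156881 held 36 and 31 reads in KL against 19 and 18 in KLG4m/m libraries (-0.80, SE 0.29, adjusted p = 0.0815), and the peak at chr6:52189838-52190238 held 93 and 109 against 109 and 121 (0.24, SE 0.15, adjusted p = 0.324). The posterior gene Hoxa10 held 23 and 11 reads against 27 and 31 (0.82, SE 0.33, adjusted p = 0.116), and Hoxa11, the lowest of the cluster at 5.29 CPM, held 17 and 19 reads in each group. The remaining Hoxa peaks, of Hoxa4 and Hoxa13, lay between -0.51 and 0.37, and Hoxa2, Hoxa6 and Hoxa9 had no listed peak. Transcripts of neighbouring Hox genes overlap, so the symbol given to a peak can be that of an adjacent gene. Inside the cluster a further promoter peak was assigned to the microRNA gene Mir196b, named here after its values were seen, with 27 and 25 reads in KL against 50 and 57 in KLG4m/m libraries (1.10, adjusted p = 0.00430).

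In the Hoxb cluster the rise was at Hoxb4, a gene known for the expansion of blood stem cells and the highest of its cluster at 42.9 CPM. Its promoter peak (chr11:96208981-96209381) held 135 and 121 reads in KL against 178 and 150 in KLG4m/m libraries. The groups did not overlap, and KLG4m/m replicate 4 lay nearer to the KL libraries than replicate 3 did. The signal rose from 36.8 ± 2.82 to 49.0 ± 3.66 CPM (mean ± SD, n = 2 each), a log2 fold change of 0.41 (SE 0.13, adjusted p = 0.0426), or 1.33-fold. The adjusted p was 0.0602 without KL replicate 1, 0.261 without KL replicate 2 and 0.0520 with limma, and it ran from 0.00463 to 0.512 over the alternatives. Both peaks assigned to Hoxblinc, a non-coding RNA gene next to Hoxb4, had positive values that did not pass the threshold (0.39 and 0.32, adjusted p = 0.0732 and 0.223). At the far end of the cluster Hoxb9, the lowest gene at 3.28 CPM, held 12 and 20 reads in KL against 6 and 7 in KLG4m/m libraries (-1.23, SE 0.48, adjusted p = 0.106). The other Hoxb peaks, of Hoxb1, Hoxb5, Hoxb6 and Hoxb7, lay between -0.50 and 0.31, and Hoxb2, Hoxb3, Hoxb8 and Hoxb13 had no listed peak.

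In the Hoxc cluster all 5 peaks had log2 fold changes above 0, from 0.21 at Hoxc5 to 0.47 at Hoxc6, with a median of 0.30 beside 0.0077 over all peaks. None passed the threshold in the edgeR, DESeq2 or limma fit (Hoxc6 passed with promoter centring). By the edgeR fit 1 had an unadjusted p under 0.05, beside 3958 higher and 4780 lower of all 35486 peaks. Hoxc6, a gene of the thoracic region and the highest of the cluster, held 50 and 52 reads in KL against 74 and 62 in KLG4m/m libraries (SE 0.19, adjusted p = 0.119). Hoxc5, the lowest, held 15 and 11 reads against 13 and 16. A peak of the gene Gm36878 within the cluster had a value of the other sign (-0.66, adjusted p = 0.180). Hoxc8, Hoxc11, Hoxc12 and Hoxc13 had no listed peak. The Hoxd cluster had 2 listed peaks, and 7 of its 9 genes had none. Hoxd9, a posterior gene of the trunk and limbs, had a promoter peak (chr2:74528190-74528590) with 44 and 48 reads in KL against 28 and 20 in KLG4m/m libraries, and the groups did not overlap. The signal fell from 13.2 ± 0.826 to 7.16 ± 1.36 CPM (mean ± SD, n = 2 each), a log2 fold change of -0.88 (SE 0.25, adjusted p = 0.0280), or 1.84-fold lower. Without KL replicate 2 the adjusted p was 0.126, and it ran from 0.0257 to 0.458 over the alternatives. Hoxd12, 25.1 kb away, had 52 and 46 reads in KL against 58 and 75 in KLG4m/m libraries (0.50, SE 0.20, adjusted p = 0.125).

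**Figure D2:**
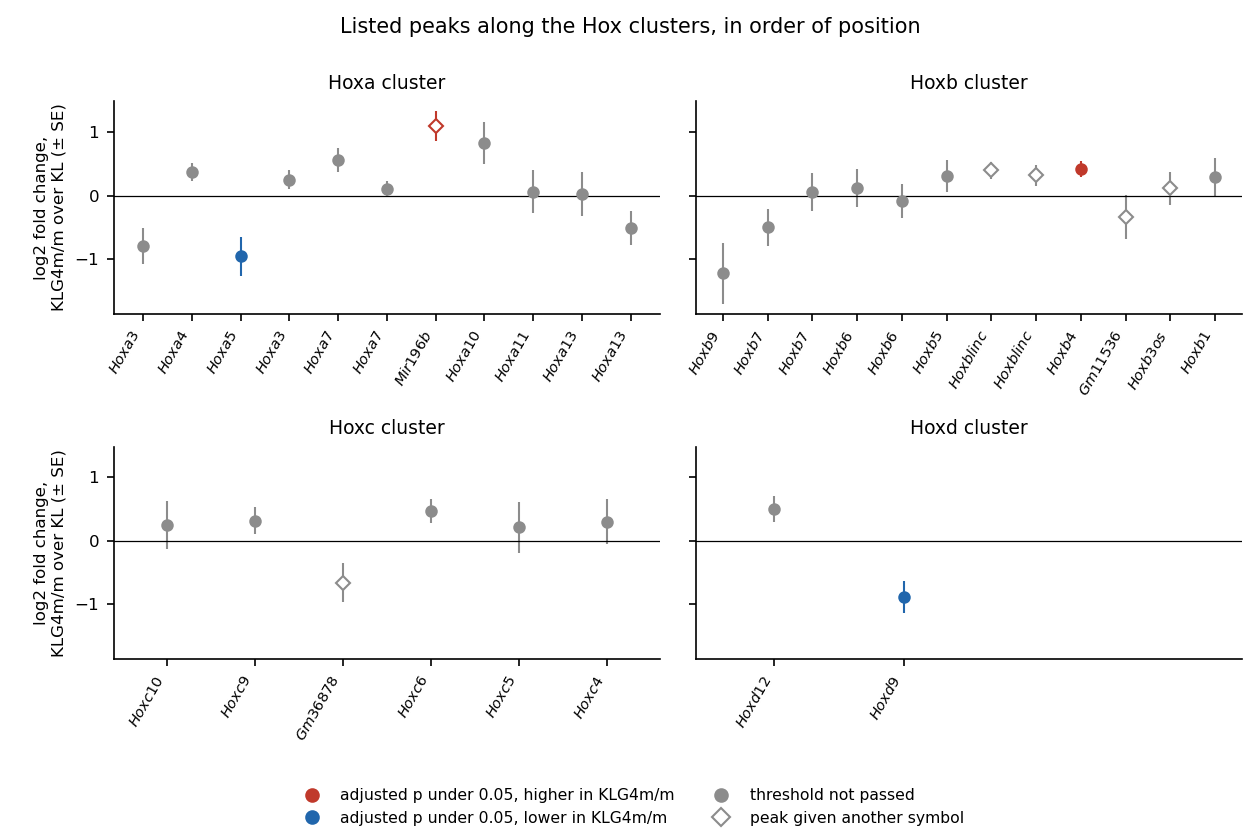
Log2 fold change of KLG4m/m over KL (vertical axis, bars are the SE) at each listed peak along the 4 Hox clusters, in order of position and not to scale along the horizontal axis, with diamonds for peaks given another symbol. Red and blue mark peaks past the threshold: in the Hoxa panel Hoxa5 lies at -0.96 and Mir196b at 1.10, in the Hoxb panel Hoxb4 lies at 0.41, and in the Hoxd panel Hoxd9 lies at -0.88, while the 5 Hoxc genes lie between 0.21 and 0.47.

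Dlx genes, the relatives of Distal-less that shape the jaws and the forebrain, and Irx genes, the Iroquois factors of neural, heart and lung development, had no peak past the threshold in the edgeR, DESeq2 or limma fit. Of the 7 Dlx and 15 Irx peaks, none had an unadjusted p under 0.05 in the edgeR fit either. Among all 35486 peaks, 3958 were higher and 4780 lower at such a p. Dlx2 was the highest Dlx gene, with 104 and 92 reads in KL against 105 and 98 in KLG4m/m libraries (0.11, SE 0.15, adjusted p = 0.703). Dlx5, the lowest at 3.55 CPM, held 13 and 7 reads against 11 and 17 (0.54, SE 0.45, adjusted p = 0.491). At its neighbour Dlx6, 26 and 40 reads in KL stood against 23 and 21 in KLG4m/m libraries (-0.53, SE 0.29, adjusted p = 0.264). The peaks of Dlx1 and Dlx3 lay between -0.51 and 0.20, and Dlx4 had no listed peak.

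All 6 Irx genes had peaks, and among the families with more than 10 peaks (Hox, Lhx, Tbx and Irx) their log2 fold changes had the narrowest range, from -0.54 to 0.32, with a lowest adjusted p of 0.289. Irx3 gave that lowest value, with 129 and 117 reads in KL against 100 and 99 in KLG4m/m libraries (-0.25, SE 0.14). Irx2, one of the Irx genes of the lung epithelium, had the highest summed level, 92.4 CPM over 3 peaks, and 327 and 286 reads stood against 308 and 336 (0.13, SE 0.09, adjusted p = 0.379). Irx6 was lowest at 7.31 CPM and gave the highest value, with 29 and 16 reads against 21 and 33 (0.32, SE 0.32, adjusted p = 0.580). Irx4, a gene of the heart ventricle, gave the lowest value at a promoter peak with 19 and 19 reads against 14 and 11 (-0.54, SE 0.37, adjusted p = 0.378). Irx1 and Irx5 had peaks 157 and 102 kb from a start site, and neither differed past the threshold. The 11 peaks of Irx1, Irx2 and Irx5 lay between -0.43 and 0.31.

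**Figure D3:**
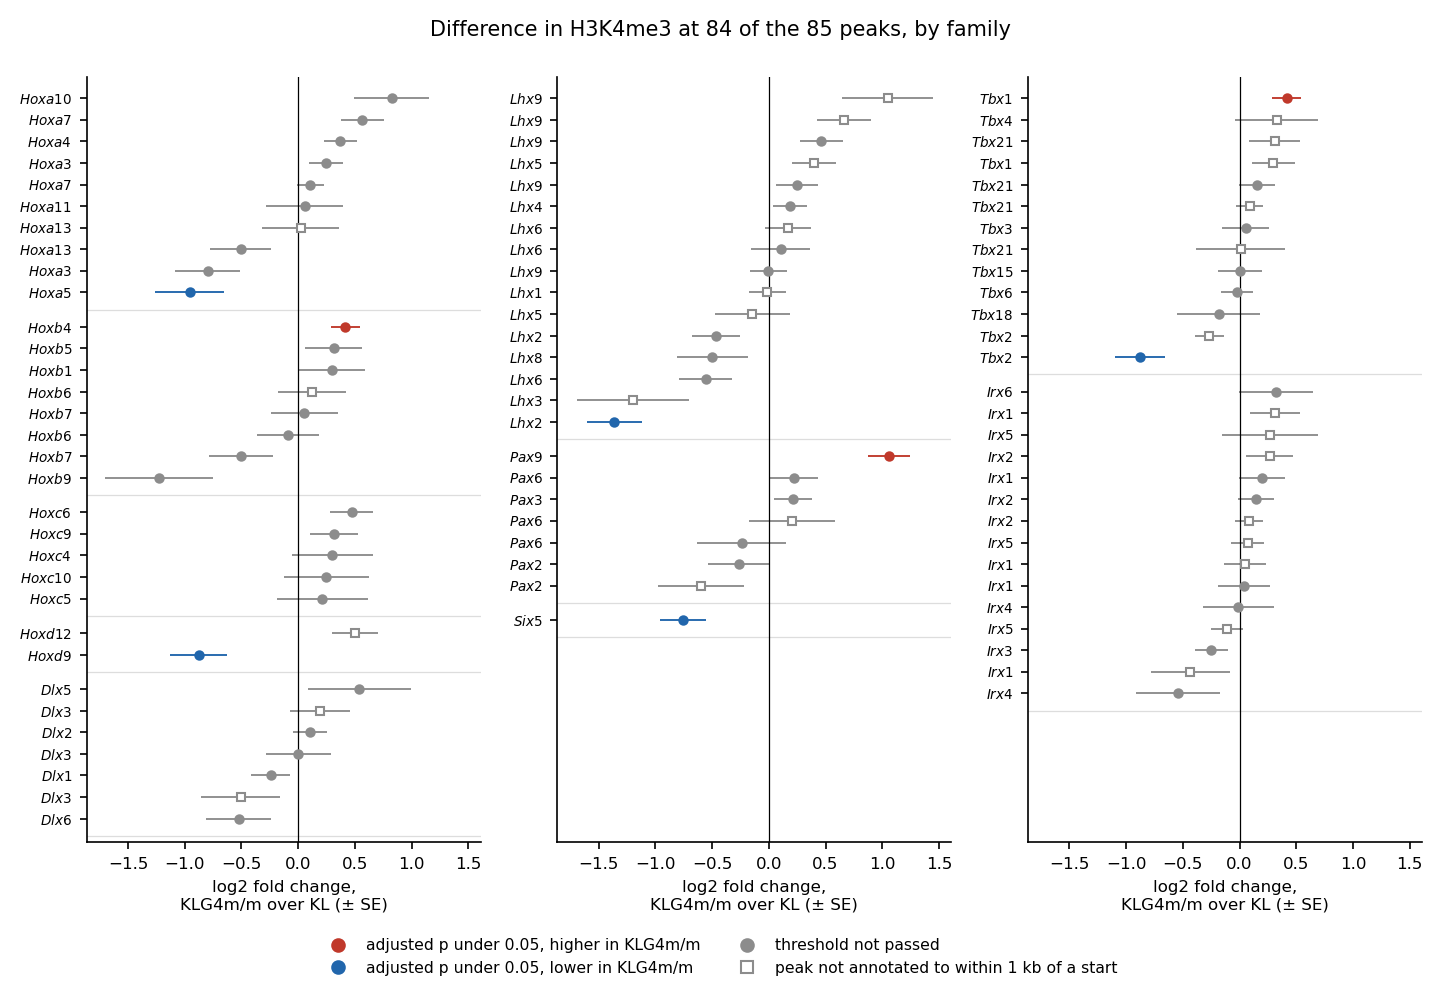
Log2 fold change of KLG4m/m over KL (horizontal axis, bars are the SE) for 84 of the 85 peaks, grouped by family and ordered by value, with open squares for the peaks not annotated to within 1 kb of a start site. The 3 red peaks (Hoxb4, Pax9, Tbx1) and 5 blue peaks (Hoxa5, Hoxd9, Lhx2, Six5, Tbx2) are all promoter peaks, and no Hoxc, Dlx or Irx peak is coloured.

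**Figure D4:**
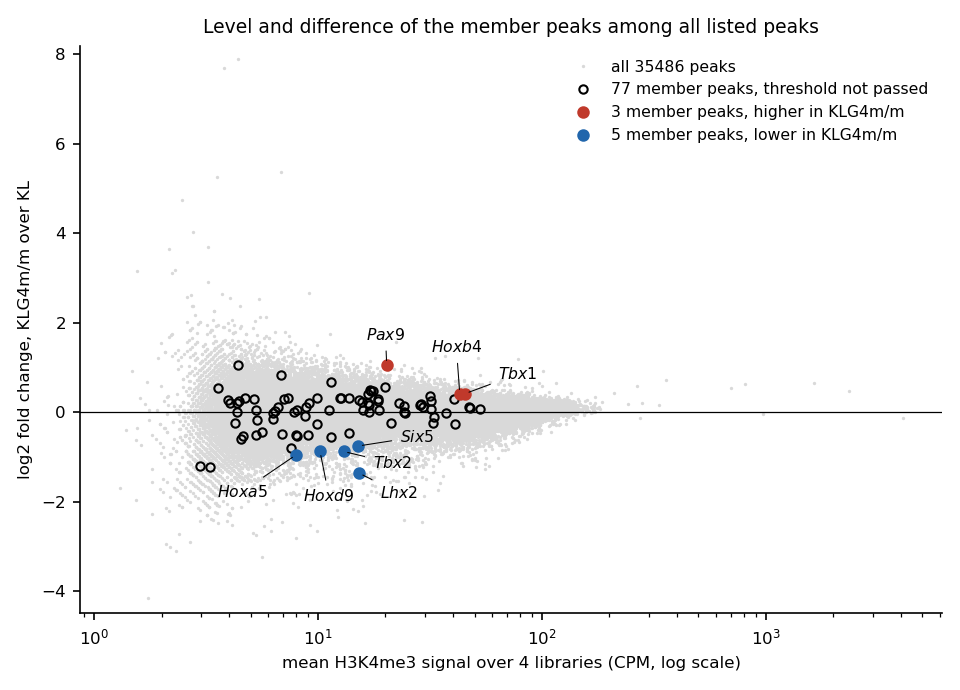
Mean signal over the 4 libraries (horizontal axis, CPM, log scale) against log2 fold change (vertical axis) for all 35486 peaks in grey and the 85 member peaks as circles. The members lie between 2.98 and 52.9 CPM and between -1.36 and 1.06, inside the grey cloud, with the 8 called peaks labelled.

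Reads summed over all peaks of a gene gave 9 of 53 genes past the threshold over all 20871 genes. The 4 higher genes, Pax9, Hoxb4, Tbx1 and Lhx9, stood beside 5.38% of all genes, and the 5 lower genes, Hoxa5, Lhx2, Hoxd9, Six5 and Tbx2, beside 9.63%, against 7.55% and 9.43% of the members. Lhx2, with 148 and 116 reads in KL against 73 and 61 in KLG4m/m libraries, had a gene-level log2 fold change of -0.92 (SE 0.16, adjusted p = 7.30e-06). For Tbx2, which held 220 and 207 reads in KL against 165 and 144 in KLG4m/m libraries, the change was -0.41 (SE 0.12, adjusted p = 0.00859), and its promoter peaks alone gave -0.87. Over its peaks Tbx1 held 174 and 211 reads in KL against 242 and 240 in KLG4m/m libraries, a log2 fold change of 0.38 (SE 0.11, adjusted p = 0.00893).

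Whether the peaks of a gene moved apart was tested with edgeR's diffSpliceDGE, which compares each peak with the other peaks of its gene. Among 51 member peaks of 19 genes with several peaks none passed the threshold, beside 1.29% of all peaks tested, and 3 had an unadjusted p under 0.05. The lowest adjusted p, 0.164, was that of the Hoxa3 peak at chr6:52156481-52156881. For the promoter peaks of Lhx2 and Tbx2 the adjusted p was 0.476 and 0.426, so a larger loss at these peaks than at the other peak of each gene was not detectable at this depth.

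Other peaks within 100 kb of the 8 called peaks were compared with them, where 8.62% of all peaks passed the threshold. At Lhx2, Tbx1 and Tbx2 they included another peak of the same gene. Near Lhx2, all 4 other peaks had negative values, with a median of -0.47, among them the second Lhx2 promoter peak and peaks of Gm13584. The promoter peak of Dennd1a, 52.7 kb away, passed the threshold (-0.46, adjusted p = 0.0172). Near Pax9, 1 of 3 other peaks passed it, in the other direction, 58.7 kb away (-1.77, adjusted p = 0.0260). That peak was annotated as downstream of the homeobox gene Nkx2-9 and held 22 and 14 reads in KL against 7 and 3 in KLG4m/m libraries. Near Hoxd9, 1 of 7 passed the threshold, in the other direction, at the homeobox gene Evx2, 40.3 kb away (0.79, adjusted p = 0.0382). Near Hoxa5, 1 of 15 passed it, the Mir196b peak given above. Near Six5, 1 of 13 passed it, at Irf2bp1, 90.7 kb away (-0.80, adjusted p = 0.0125), whereas none of the 12 peaks near Hoxb4, 7 near Tbx1 and 4 near Tbx2 passed the edgeR threshold. These neighbours were named after their values were seen.

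**Figure D5:**
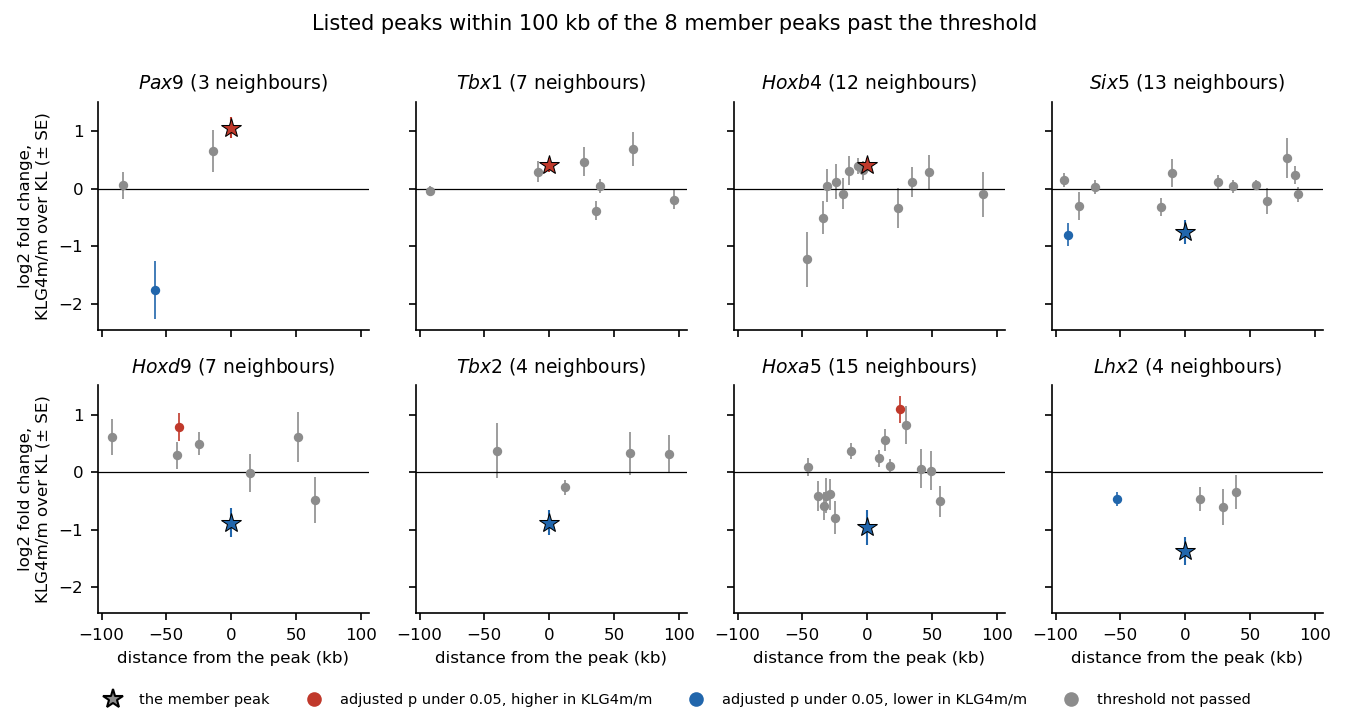
Log2 fold change of KLG4m/m over KL (vertical axis, bars are the SE) of listed peaks against their distance in kb from each of the 8 called peaks (stars, at 0). Neighbours past the threshold are coloured, 1 each near Pax9, Six5, Hoxd9, Hoxa5 and Lhx2. The 4 neighbours of Lhx2, among them its second promoter peak, all lie below 0, between -0.60 and -0.35.

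Genes that encode partners of these factors were read from the same table. Of 20 genes with a peak among 21 partners of homeodomain and LIM proteins (the Pbx, Meis, Pknox, Eya, Dach, Ldb and Lmo genes), 1 was higher and 1 lower, beside 5.38% and 9.63% of all genes, with a median log2 fold change of 0.097 beside 0.0023 over all genes. Eya4, a coactivator of homeodomain proteins, held 4 and 9 reads in KL against 13 and 20 in KLG4m/m libraries (1.38, SE 0.48, adjusted p = 0.0354). Lmo4, a LIM-only protein that competes for Ldb1, held 603 and 634 reads against 544 and 485 (-0.21, SE 0.07, adjusted p = 0.0257). Ldb1, Ldb2 and the Pbx and Meis genes with a peak were not past the threshold.

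A list of 35 genes held genes of the Polycomb complexes, which keep Hox and related genes silent. It also held Kdm6a and Kdm6b, which encode demethylases of H3K27me3, and neither of these passed the threshold. All 35 had a peak, and 8 were lower and 1 was higher in KLG4m/m cells, beside 9.63% and 5.38% of all genes. The median log2 fold change of the list was -0.055, beside 0.0023 over all genes. The complex 1 genes Cbx2, Ring1 and Rnf2 were lower, with log2 fold changes of -0.75, -0.62 and -0.54 (SE 0.15, 0.13 and 0.12). Epop, an adaptor of complex 2, held 113 and 147 reads in KL against 63 and 82 in KLG4m/m libraries (-0.79, SE 0.16, adjusted p = 1.45e-04). These values are of H3K4me3 at the listed genes and say nothing of H3K27me3, which was not measured.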

How the data were processed

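H3K4me3 was analysed in 4 libraries, 2 per group, and the labelled H3K27ac libraries were not analysed here. The authors trimmed the reads with Trim Galore 0.6.10, mapped them with BWA 0.7.15, removed duplicates with Picard 2.17.3 and called peaks with MACS2 2.2.7.1, and the submitters' notes also name HOMER 4.11.1. The deposited table holds, for 35486 peaks, counts (whole reads per library, not normalized) and CPM, which the authors scaled to 1000000 reads in listed peaks. Its columns of the authors' comparison (log2 fold change, log2 CPM, F, p and adjusted p) were not used. The study's methods name an Ensembl mouse genome for the mapping, without an assembly name, and how peaks were merged over libraries is not given in the sources used here.

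The counts were scaled by TMM without a filter and tested with edgeR 4.0.16 (glmQLFit, glmQLFTest; R 4.3.3) without covariates, two-sided, at an adjusted p under 0.05 (Benjamini-Hochberg) over all peaks or, for counts summed per symbol, over 20871 genes. The common dispersion was 0.00133. diffSpliceDGE compared each peak with the others of its gene. The tests were tested on simulated data. The labels do not name the mouse behind each of the 2 libraries per group, so p-values measure only the spread between these libraries, which may be technical. Alternatives were DESeq2 1.42.0 with its size factors, limma 3.58.1 on log2(CPM + 1), RLE factors, total reads and a minimum mean of 10 reads per library. For limma the CPM were scaled by total reads, without TMM. Further alternatives were centring on promoter peaks, an added 1.5-fold change, promoter peaks alone for genes, and leaving out each library. Levels are mean TMM-scaled CPM ± SD.

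Named members are those past a threshold and the genes with the highest and lowest summed level of each family, and, for the lists of other genes, up to 4 past the threshold by p (those of the marker lists are given as counts), with Gpx4 and the genes of the sort. The smallest and largest reported fold changes of each family are given with their reads. The members and lists were chosen with earlier results of these data known. A further allele carried by the mice of both groups, and some genes and peaks, are not reported here.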

Additional observations from a re-analysis of the deposited data

How the results depend on the processing

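RLE factors, scaling by total reads and a minimum mean of 10 reads per library gave the same 8 member peaks, and no named peak or gene changed direction in any alternative. Limma called 6 of the 8, without Hoxa5 and Hoxb4. With an added 1.5-fold change 1 member peak was higher and 5 lower, and 1 gene was higher and 4 lower. DESeq2 called 1 higher and 1 lower peak and 1 higher and 1 lower gene, and 283 of all peaks in place of 3059. Centring on promoter peaks gave 12 higher peaks and 8 higher genes. The member medians were then 0.19 for peaks, beside 0.11 over all peaks, and 0.15 for genes, beside 0.060 over all genes. Why DESeq2 called fewer peaks was not tested. With 1 library left out, 0 to 2 peaks were higher and 0 to 3 lower, 0 to 3 genes were higher and 0 to 4 lower, and the medians ran from 0.066 to 0.12 for peaks and from 0.039 to 0.14 for genes. All counts of 0 came from leaving out a KLG4m/m library, where prior degrees of freedom were 2.63 and 5486 or 5178 of all peaks had an unadjusted p under 0.05. Without KL replicate 1 the called peaks were Hoxa10, Hoxd9, Lhx2, Pax9 and Tbx2, and without KL replicate 2 they were Hoxa5, Lhx2, Pax9, Six5 and Tbx1. No member peak differed from the other peaks of its gene with the minimum of 10 reads, with total reads or without 1 library, the alternatives run for that test. No paired analysis was possible because the replicate numbers 1 and 2 of the KL libraries are not shared with 3 and 4 of the KLG4m/m libraries. At 4 to 193 reads per peak and library, small differences were not detectable.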

Other observations

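Homeobox and T-box genes outside the 7 families were also read from the table, from a list of 61 genes of which 50 had a peak. Of these 4 were higher and 5 lower in KLG4m/m cells, beside 5.38% and 9.63% of all genes, with a median log2 fold change of -0.023. Gsc, the goosecoid gene of the gastrula organizer, fell from 6.77 ± 0.196 to 1.48 ± 0.784 CPM (mean ± SD, n = 2 each), a log2 fold change of -2.15 (SE 0.47, adjusted p from edgeR 2.81e-04). Prrx2, a gene of the limb and craniofacial mesenchyme, fell from 9.08 ± 1.03 to 3.14 ± 0.0795 CPM (-1.52, SE 0.36), and Tlx2, a gene of enteric neurons, fell from 19.7 ± 2.63 to 11.0 ± 2.37 CPM (-0.85, SE 0.22). Nkx2-3, a gene of the spleen and gut, rose from 8.64 ± 0.805 to 15.6 ± 0.192 CPM (0.85, SE 0.24, adjusted p from edgeR 0.00762). The smallest of these peaks rest on few reads per library.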
